A study of Mus musculus with 6 samples.

Results

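The vascular endothelial growth factor (VEGF) ligands Vegfa, Vegfb, Vegfc and Pgf, their receptors Flt1, Kdr and Flt4, the co-receptor Nrp1, the angiopoietin receptor Tek and the adhesion molecule Pecam1 were followed in macrophages sorted from mouse abdominal fat. The set of 10 genes was taken by symbol, and all 10 were found among the 23946 genes of the deposited table. Macrophages were sorted by surface CD45, CD11b and the macrophage antigen that Emr1 (Adgre1) encodes, from dissociated omentum (OM), the fat apron that hangs from the stomach, and from mesenteric adipose tissue (MY), which borders the gut. The mice were C57BL/6, and the methods give them as female and 6 to 8 weeks old. They were either naive or had received an intraperitoneal injection of ID8 cells, a mouse ovarian carcinoma line of the same strain background, 24 h or 7 d earlier. No library came from mice injected without ID8 cells, so the injection itself and the cells cannot be told apart. Each library was made from tissue of 3 mice, going by the series design. With 6 conditions and a single library for each, no value has a replicate check, conditions could not be tested against each other, and a difference describes only the libraries it compares.

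VEGF-A drives the sprouting of blood vessels through the receptor tyrosine kinase KDR (VEGFR2), while FLT1 (VEGFR1) binds VEGF-A tightly and signals weakly, and is also the receptor for VEGF-B and placental growth factor. VEGF-C acts mainly on FLT4 (VEGFR3) and supports lymphatic vessels. Neuropilin-1 is shared by VEGF-A and the class 3 semaphorins, TEK (TIE2) answers to the angiopoietins, and PECAM1 (CD31) holds endothelial cells together. The receptor genes and Pecam1 are best known from endothelium, but macrophages can make VEGF ligands and can carry FLT1, neuropilin-1, TEK and PECAM1.

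At 24 h after injection, Vegfa, Flt4 and Nrp1 were at least 2-fold higher and Pecam1 at least 2-fold lower in omentum than in mesentery, and at 7 d Vegfa, Flt4, Kdr, Pgf and Flt1 were higher. Vegfa was higher in both omental libraries from injected mice than in naive omentum, and lower in both mesenteric libraries from injected mice than in naive mesentery. Flt4 was listed at 0 in naive omentum and was highest of all 6 libraries in omentum at 24 h, and Nrp1 also had its highest value there. Pecam1 had its lowest value in that same library, and Kdr was lowest there as well. Vegfb differed by less than 2-fold between any pair of libraries compared.

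The 3 members with a 2-fold or larger excess in OM 24 h over OM naive (Vegfa, Flt4 and Nrp1) all had the letters TACGTG, a core form of the element bound by hypoxia-inducible factors, within 2000 bases upstream of the gene start on one strand or the other. They are shown because Vegfa is the textbook target of those factors. The stretches shown come from the mouse genome build NCBIM37 (mm9), run 5′ to 3′ on the gene's strand, lie in no annotated exon, and have the match in capitals (CACGTA is TACGTG read from the other strand).
Vegfa, chr17:46170198-46170297, minus strand, match 924 bases before the start: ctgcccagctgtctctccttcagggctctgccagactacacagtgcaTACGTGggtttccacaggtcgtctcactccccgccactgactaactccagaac
Flt4, chr11:49421068-49421167, plus strand, match 1650 bases before the start: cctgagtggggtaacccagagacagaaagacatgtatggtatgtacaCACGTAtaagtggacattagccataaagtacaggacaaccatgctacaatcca
Nrp1, chr8:130882023-130882122, plus strand, match 903 bases before the start: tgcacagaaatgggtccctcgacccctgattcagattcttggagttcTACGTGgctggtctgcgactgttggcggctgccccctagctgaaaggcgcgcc
Nrp1, chr8:130882262-130882361, plus strand, match 664 bases before the start: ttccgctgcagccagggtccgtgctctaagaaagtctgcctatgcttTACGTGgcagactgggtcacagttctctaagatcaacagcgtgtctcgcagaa
Nrp1, chr8:130882638-130882737, plus strand, match 288 bases before the start: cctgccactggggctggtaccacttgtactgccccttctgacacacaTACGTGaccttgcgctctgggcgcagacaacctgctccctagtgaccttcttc

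The same letters stood upstream of Pecam1 at 2 places and of Pgf at 1 place, and were not found in the windows of Vegfb, Vegfc, Flt1, Kdr and Tek. Of 22380 windows of 2000 bases upstream of annotated genes, 19.6% held them, and a match is given as a description of the sequence only.

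In that build with the GENCODE M1 annotation, the ligand genes lie at chr17:46153942-46169326 (Vegfa, minus strand), chr19:7056963-7062141 (Vegfb, minus strand), chr8:55162886-55271808 (Vegfc, plus strand) and chr12:86507589-86518246 (Pgf, minus strand). The receptor genes lie at chr5:148373180-148537587 (Flt1, minus strand), chr5:76328852-76374483 (Kdr, minus strand), chr11:49422765-49466241 (Flt4, plus strand), chr8:130882973-131029362 (Nrp1, plus strand) and chr4:94405980-94541667 (Tek, plus strand). Pecam1 lies at chr11:106515531-106611942 on the minus strand.

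Levels are in FPKM, the number of sequenced fragments scaled to transcript length and to the fragments mapped in the library, so that levels of genes of different length can be set side by side. Genes that reached 1 FPKM in any library were taken as expressed, which 13064 genes and 9 of the 10 members did, Tek being the exception. Pgf reached it only in OM 7 d, Flt1 and Flt4 only in OM 24 h and OM 7 d, and Kdr only in OM naive and OM 7 d, so a count over these members leans towards omentum by construction. Differences are on a log2(FPKM + 1) scale, where those of low genes come out too small, and a difference of at least 1 on that scale (2-fold) was counted. In such bulk RNA, fewer cells of a type and less RNA per cell cannot be told apart.

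FPKM values summed to between 526887 and 713863 per library, and the table does not give the reads each value rests on. A rough depth read from the steps of low values ran from 0.856 (OM naive) to 1.49 (OM 7 d) times that of MY naive, so low values rest on the fewest reads in OM naive. The OM 24 h library stood apart in that Cd74, a leukocyte gene at 11323 FPKM or more in the other 5 libraries, was listed at 0 there. It was the only gene listed at 0 in 1 library and at 10 FPKM or more in every other, and because of it a value of 0 is reported as listed, not as absence. The sort genes Ptprc (CD45, 106 to 208 FPKM), Itgam (CD11b, 27.8 to 151 FPKM) and Emr1 (20.5 to 135 FPKM) were present in all 6 libraries.

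**Figure D1:**
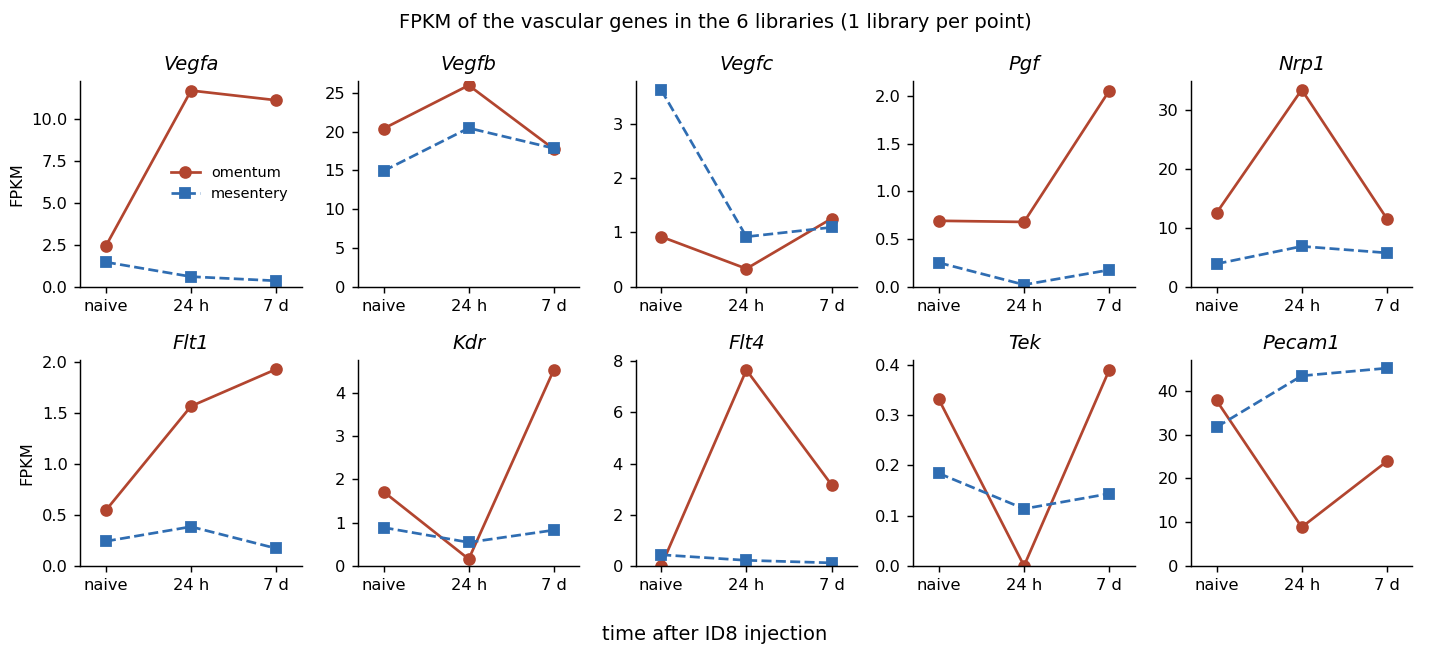
FPKM (vertical axis, linear and scaled separately for each gene) of the 10 vascular genes before and 24 h and 7 d after ID8 injection (horizontal axis), with omentum as circles and solid lines and mesentery as squares and dashed lines. Each point is 1 library with no error estimate. Vegfa reached 11.7 and 11.1 FPKM in omentum after injection against at most 1.46 in mesentery, and Pecam1 had its lowest value, 8.85, in omentum at 24 h.

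Among the ligands, Vegfa was at 2.42 FPKM in OM naive, 11.7 in OM 24 h and 11.1 in OM 7 d, whereas MY naive, MY 24 h and MY 7 d gave 1.46, 0.597 and 0.351. The 3 omental libraries all lay above the 3 mesenteric ones, with the naive libraries of the tissues closest together. On the log2 scale OM exceeded MY by 0.48 in naive mice, 2.99 at 24 h and 3.16 at 7 d. Within omentum the difference from naive was 1.89 at 24 h and 1.82 at 7 d, a 4.82-fold and a 4.58-fold ratio of FPKM. Within mesentery the difference from naive was -0.62 at 24 h and -0.87 at 7 d, FPKM ratios of 2.45-fold and 4.16-fold lower between levels of 1.46 FPKM or less. On the log2(FPKM + 1) scale both fall short of 2-fold, while both pass it with a pseudocount of 0.1 (-1.16 and -1.79), and the 7 d value also passes after rescaling to a fixed FPKM sum (-1.19).

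Vegfb, a ligand of FLT1 known best from heart and muscle, was at 20.4, 26.0 and 17.7 FPKM in OM naive, 24 h and 7 d, and at 14.9, 20.5 and 17.8 FPKM in MY naive, 24 h and 7 d. The tissues overlapped, and none of the 9 comparisons reached 2-fold, the widest being a difference of -0.53 between OM 7 d and OM 24 h. Vegfb was the most abundant of the 4 ligands in every library.

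Vegfc, the lymphatic growth factor, was at 0.921, 0.331 and 1.26 FPKM in OM naive, 24 h and 7 d, and at 3.62, 0.920 and 1.09 FPKM in MY naive, 24 h and 7 d. Only MY naive stood clearly above 1 FPKM, and the tissues overlapped. Vegfc was the only member that was at least 2-fold lower in naive omentum than in naive mesentery, at a log2 difference of -1.27. It was also the only member past 2-fold within mesentery, with log2 differences from naive of -1.27 at 24 h and -1.14 at 7 d. All of these rest on the single MY naive value.

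Pgf, placental growth factor, was at 0.690, 0.678 and 2.05 FPKM in OM naive, 24 h and 7 d, and at 0.251, 0.0205 and 0.175 FPKM in MY naive, 24 h and 7 d. The omental values all lay above the mesenteric ones, but only OM 7 d was above 1 FPKM. At 7 d OM exceeded MY by 1.38 on the log2 scale, and the other differences between tissues (0.43 in naive mice and 0.72 at 24 h) were under 2-fold.

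Summed over the 4 ligands, FPKM was 24.4, 38.7 and 32.1 in OM naive, 24 h and 7 d, and 20.3, 22.0 and 19.5 in MY naive, 24 h and 7 d. Vegfa made up 9.92%, 30.2% and 34.5% of that sum in the omental libraries and 7.21%, 2.71% and 1.80% in the mesenteric ones, in the same order. Vegfb made up 83.5%, 67.2% and 55.2% of it in omentum and 73.7%, 93.0% and 91.7% in mesentery. The share of Vegfa was thus higher in both omental libraries after injection and lower in both mesenteric ones, while the summed level stayed between 19.5 and 22.0 FPKM in mesentery.

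Among the receptors, Flt1, which binds VEGF-A, VEGF-B and placental growth factor, was at 0.544, 1.56 and 1.93 FPKM in OM naive, 24 h and 7 d, and at 0.241, 0.383 and 0.171 FPKM in MY naive, 24 h and 7 d. The omental values all lay above the mesenteric ones. OM exceeded MY by 0.31 in naive mice, 0.89 at 24 h and 1.32 at 7 d on the log2 scale, so that only the 7 d difference reached 2-fold.

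Kdr, the main signalling receptor for VEGF-A, was at 1.71, 0.157 and 4.53 FPKM in OM naive, 24 h and 7 d, and at 0.885, 0.543 and 0.825 FPKM in MY naive, 24 h and 7 d. Mesentery varied little, while omentum held both the lowest and the highest value of the 6 libraries. Within omentum Kdr was lower at 24 h than in naive mice by a log2 difference of -1.23 and was higher at 7 d than in naive mice by 1.03. Between OM 7 d and OM 24 h the difference was 2.26, the widest of any member in that comparison.

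Flt4, the receptor for VEGF-C, was listed at 0 in OM naive and was at 7.66 FPKM in OM 24 h and 3.17 FPKM in OM 7 d, against 0.433, 0.217 and 0.117 FPKM in MY naive, 24 h and 7 d. The omental libraries thus held both the lowest and the highest values, and no fold is given against the 0. At 24 h OM exceeded MY by 2.83 on the log2 scale, and at 7 d by 1.90. Vegfc, the main ligand of this receptor, was at its lowest, 0.331 FPKM, in the library where Flt4 was highest.

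Nrp1, the co-receptor, was at 12.5, 33.5 and 11.6 FPKM in OM naive, 24 h and 7 d, and at 3.88, 6.86 and 5.75 FPKM in MY naive, 24 h and 7 d. All omental values lay above all mesenteric ones, and OM 24 h was the highest. OM exceeded MY by 1.47 in naive mice, 2.13 at 24 h and 0.90 at 7 d on the log2 scale. Within omentum Nrp1 was higher at 24 h than in naive mice by 1.35, and the difference from 24 h to 7 d was -1.46. The ratio of Nrp1 to the summed FPKM of Flt1, Kdr and Flt4 was 5.56, 3.57 and 1.20 in OM naive, 24 h and 7 d and 2.49, 6.00 and 5.17 in MY naive, 24 h and 7 d.

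Tek, the angiopoietin receptor, was at 0.331, 0 and 0.390 FPKM in OM naive, 24 h and 7 d, and at 0.184, 0.114 and 0.144 FPKM in MY naive, 24 h and 7 d. It stayed under 1 FPKM in all 6 libraries, and no comparison of it passed 2-fold.

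Pecam1, carried by endothelium and by many leukocytes, was at 37.8, 8.85 and 23.9 FPKM in OM naive, 24 h and 7 d, and at 31.8, 43.5 and 45.2 FPKM in MY naive, 24 h and 7 d. The naive libraries of the tissues were close, and OM 24 h was the lowest of the 6. At 24 h OM was lower than MY by a log2 difference of -2.17, and at 7 d by -0.89. Within omentum Pecam1 was lower at 24 h than in naive mice by -1.98 and was higher at 7 d than at 24 h by 1.34. In mesentery it was higher than in naive mice by 0.44 at 24 h and 0.50 at 7 d, both under 2-fold.

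By FPKM, Pecam1 was first of the 10 genes, Vegfb next and Nrp1 after it in each library except OM 24 h, but in OM 7 d Pecam1 and Vegfb were 1.35-fold apart. In OM 24 h Nrp1 at 33.5 FPKM and Vegfb at 26.0 FPKM stood first, 1.29-fold apart, which is inside the 1.5-fold margin under which neighbours were not put in order. Vegfa at 11.7 FPKM, Pecam1 at 8.85 FPKM and Flt4 at 7.66 FPKM followed, each within that margin of the next. In OM 7 d Nrp1 and Vegfa were 1.04-fold apart, and in MY naive Nrp1 and Vegfc were 1.07-fold apart, so the order of those pairs is not settled either. The lowest place was held by Flt4 in OM naive and by Tek in OM 24 h, both listed at 0, by Tek in OM 7 d and by Pgf in MY 24 h. In MY naive and MY 7 d the lowest genes lay within 1.5-fold of the next one and were not put in order.

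**Figure D2:**
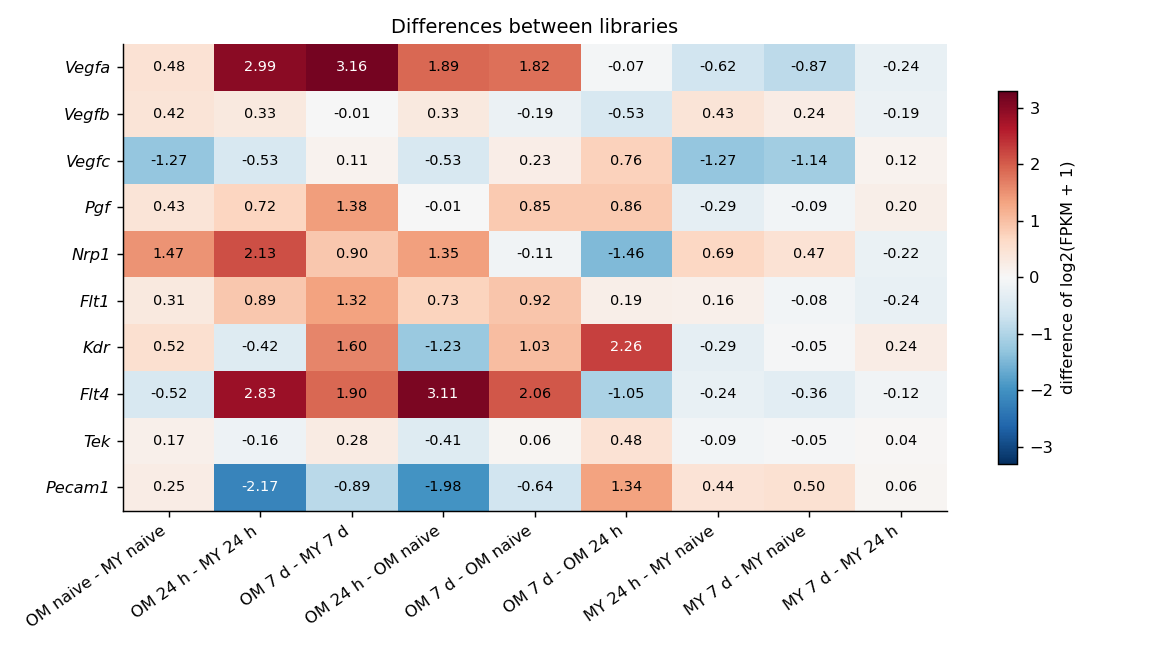
Difference in log2(FPKM + 1) between pairs of libraries for each vascular gene, with the first library of each label minus the second (columns) and genes in rows. Red is higher and blue lower in the first library, and each cell rests on 1 library a side. Vegfa differed by 2.99 and 3.16 between the tissues at 24 h and 7 d, and the 3 mesenteric columns on the right hold no value past 1 in size other than those of Vegfc.

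Before injection, 1 of the 10 members was at least 2-fold higher in omentum (Nrp1) and 1 was at least 2-fold lower (Vegfc), where the background over expressed genes was 8.18% higher and 8.05% lower. The median difference of the members was 0.37 against 0.01 over all expressed genes. At 24 h, 3 members were higher in omentum (Vegfa, Flt4 and Nrp1) and 1 was lower (Pecam1), against 13.9% and 10.2% of expressed genes, and the medians were 0.52 and 0.00. At 7 d, 5 members were higher (Vegfa, Pgf, Flt1, Kdr and Flt4) and 0 lower, against 14.1% and 4.99% of expressed genes, and the medians were 1.11 and -0.01. The leaning from the expression minimum given above bears on these counts. With a pseudocount of 5 in place of 1, Vegfa alone passed 2-fold at 7 d and 0 members did in naive mice, while the same 4 did at 24 h, so which time has the most members past 2-fold depends on that choice.

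Within omentum, 3 members were at least 2-fold higher at 24 h than in naive mice (Vegfa, Flt4 and Nrp1) and 2 were lower (Kdr and Pecam1), against 11.9% and 6.45% of expressed genes. At 7 d against naive, 3 were higher (Vegfa, Kdr and Flt4) and 0 lower, against 11% and 1.96%. The 24 h and 7 d comparisons share the naive library, so their values are set side by side and are not counted as separate evidence. From 24 h to 7 d, 2 members were higher (Kdr and Pecam1) and 2 lower (Flt4 and Nrp1), against 7.03% and 4.52%. After the libraries were rescaled to the same FPKM sum, Vegfc and Pgf joined those higher and Flt4 no longer passed, leaving 4 higher and 1 lower. Vegfa differed by -0.07 between these libraries as deposited and by 0.26 after that rescaling.

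Within mesentery, 0 members were higher at 24 h than in naive mice and 1 was lower (Vegfc), against 2.8% and 1.52% of expressed genes. At 7 d against naive, 0 were higher and 1 was lower (Vegfc again), against 0.498% and 2.29%. From 24 h to 7 d, 0 members passed 2-fold in either direction, against 1.84% higher and 3.54% lower. Counting both directions, fewer expressed genes passed 2-fold among the mesenteric libraries than among the omental ones.

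Over all time points, 4 members (Vegfa, Pgf, Flt1 and Nrp1) had every omental library above every mesenteric one and 0 had the reverse, where 16.7% of expressed genes did the first and 17.7% the second. Asking for a gap of at least 2-fold between every omental and every mesenteric library left 0 members in either direction, against 2.73% and 2.12% of expressed genes. The naive libraries set the gap for Vegfa, 0.48 on the log2 scale, and the gap for Nrp1 was 0.68.

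Markers of other cell types were followed as well, and some lists differed by tissue while others did not. The 24 endothelial markers summed to 269, 135 and 269 FPKM in OM naive, 24 h and 7 d and to 197, 153 and 256 FPKM in MY naive, 24 h and 7 d, and S1pr1 and Icam2, which leukocytes also carry, were the highest of them in 5 of the 6 libraries. In OM 7 d Cd34, a gene of vessels and of some stromal cells, came second, and it was at 12.3, 5.42 and 51.4 FPKM in omentum and at most 1.69 FPKM in mesentery, the only marker of the list separated by at least 2-fold. Against mesentery, 1 marker of the list was at least 2-fold higher in naive omentum and 2 were lower (8.18% and 8.05% of expressed genes). At 24 h, 3 were higher and 5 lower (13.9% and 10.2%), and at 7 d, 8 were higher and 0 lower (14.1% and 4.99%). The median differences were 0.45, -0.01 and 0.71 in the same order. Cdh5, the VE-cadherin gene that defines endothelium, was between 0.151 and 0.383 FPKM in all 6 libraries. In OM 24 h, 6 of the 24 were listed at 0 (Cldn5, Emcn, Sox17, Sox18, Mmrn2 and Gpihbp1), against 0 or 1 of 24 in the other omental libraries and 0 to 3 in the mesenteric ones.

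Within omentum, Kdr and Pecam1 were lower at 24 h than in naive mice and higher at 7 d than at 24 h, as several of these markers were. Pecam1 at 7 d stayed below its naive value (23.9 against 37.8 FPKM), unlike Kdr, Cldn5, Plvap, Emcn and Egfl7. Other markers were higher at 24 h than in naive omentum. Among them were Esam (3.83, 30.5 and 44.0 FPKM in OM naive, 24 h and 7 d), Robo4 (0.645, 1.83 and 1.12 FPKM) and Eng (7.51, 9.95 and 4.49 FPKM). Cldn5, a tight junction gene, was at 0.964, 0 and 2.35 FPKM in OM naive, 24 h and 7 d, and Plvap, a gene of fenestrated endothelium, at 9.32, 0.593 and 23.1 FPKM. From OM 24 h to OM 7 d, 9 of the 24 endothelial markers were at least 2-fold higher and 0 lower, with a median difference of 0.54, against 7.03% and 4.52% of expressed genes. From OM naive to OM 24 h, 1 was higher (Esam) and 5 were lower (Sox18, Plvap, Icam2, Cd34 and S1pr1), with a median of -0.57, against 11.9% and 6.45%. Emcn, a venous and capillary marker, was at 0.813, 0 and 1.36 FPKM in the same omental libraries and at most 0.0588 FPKM in mesentery. Egfl7 (1.61, 0.723 and 3.80 FPKM in omentum) and Vwf (0.916, 0.302 and 0.795 FPKM) were likewise lowest at 24 h. The part of endothelial cells in the values of Kdr and Pecam1 was not tested.

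Flt4 did not follow those markers, being highest in OM 24 h, where most of them had their lowest omental value. Of 7 lymphatic markers, 2 were expressed (Lyve1 and Pdpn). Prox1, the transcription factor that defines lymphatic endothelium, was between 0.0939 and 0.261 FPKM in all 6 libraries, and Ccl21a was listed at 0 in all 6. Lyve1, which macrophages also carry, was at 53.5, 55.3 and 5.96 FPKM in OM naive, 24 h and 7 d and at most 2.26 FPKM in mesentery. Pdpn, shared by lymphatic endothelium, mesothelium and fibroblasts, was at 2.80, 15.4 and 16.0 FPKM in omentum and at most 0.234 FPKM in mesentery. Both were separated by at least 2-fold between the tissues, as 2.73% of expressed genes were in that direction. Reln, the next highest, stayed under 1 FPKM, and Reln and Tbx1 were lower in every omental library than in every mesenteric one.

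Mesothelial markers were high in omentum and near 0 in mesentery. The 8 markers measured (Krt19, Upk3b, Krt18, Krt8, Msln, Upk1b, Wt1 and Lrrn4) summed to 99.3, 1016 and 1010 FPKM in OM naive, 24 h and 7 d and to between 0.920 and 1.33 FPKM in mesentery, and all 8 were at least 2-fold higher in every omental library, as 2.73% of expressed genes were. Krt19 reached 406 FPKM, Upk3b 259 FPKM and Krt18 145 FPKM in omentum, and no mesenteric library passed 0.823 FPKM for any of the 8. Keratins can also come from ID8 cells, which are epithelial. The summed level was low in naive omentum and similar at 24 h and 7 d, as Vegfa was, and the part of mesothelial or ID8 cells in the Vegfa values was not tested.

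Fibroblast markers summed to 346, 222 and 1193 FPKM in OM naive, 24 h and 7 d and to between 2.12 and 3.11 FPKM in mesentery. Of 7, 5 (Col1a1, Col1a2, Col3a1, Dcn and Lum) were separated by at least 2-fold, against 2.73% of expressed genes. Dcn was the highest at 782 FPKM in OM 7 d. Pericyte and smooth muscle markers summed to 26.9, 20.8 and 47.8 FPKM in omentum and 4.18 to 7.13 FPKM in mesentery. Of 10, 3 (Acta2, Myh11 and Tagln, though not Des) were separated, against the same 2.73%. Against mesentery, 3, 4 and 6 of the 10 were at least 2-fold higher in naive mice, at 24 h and at 7 d (8.18%, 13.9% and 14.1% of expressed genes). Kcnj8 alone was lower, in naive mice and at 24 h (8.05% and 10.2% of expressed genes). It was at 1.01, 0.101 and 2.90 FPKM in omentum and 4.07, 1.33 and 2.28 FPKM in mesentery. Both lists were highest in OM 7 d, as Pgf, Flt1 and Kdr were, and their part in those values was not tested. Adipocyte markers summed to 8.39 FPKM in OM naive, led by Retn at 4.37 FPKM, Adipoq at 1.81 FPKM and Cidec at 1.55 FPKM, and to under 2 FPKM in each of the other 5 libraries.

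Among leukocyte lists, macrophage markers summed to 7718, 26507 and 7260 FPKM in OM naive, 24 h and 7 d and to 3166 to 4356 FPKM in mesentery, with Lyz2 and Cd68 at the top beside Csf1r. Most of each sum was Lyz2 (7054, 24780 and 6791 FPKM in omentum). At 7 d, 3 of the 9 (Itgam, Fcgr1 and Lyz2) were at least 2-fold higher in omentum than in mesentery, against 14.1% of expressed genes. Cd68 was higher, and Ptprc, Emr1, Csf1r, Mertk and Mrc1 lower, by less than 2-fold. The median difference was 0.77 in naive mice, 1.40 at 24 h and -0.24 at 7 d. Csf1r, the receptor that macrophages depend on, was at 132, 570 and 103 FPKM in omentum and 121, 313 and 192 FPKM in mesentery, so it was highest at 24 h in both tissues, as Nrp1 was. Neutrophil markers summed to 5932, 13820 and 14615 FPKM in omentum and 242 to 683 FPKM in mesentery. Of 7, 4 (S100a8, S100a9, Mmp8 and Mmp9) were separated by at least 2-fold, against 2.73% of expressed genes. Retnlg, at 872 FPKM in OM 24 h, was the next highest after the S100 genes. The 6 markers of plasmacytoid dendritic cells, which can also carry Nrp1, did not move together. Siglech was at 0.574 to 1.15 FPKM in omentum and 29.9 to 68.9 FPKM in mesentery, whereas Tcf4 was at 11.4 to 25.7 FPKM in omentum and 8.22 to 10.2 FPKM in mesentery. Ccr9 was at 1.11 to 3.19 FPKM in omentum and 7.21 to 20.6 FPKM in mesentery. Ly6d was higher in omentum at each time, and Bst2 and Cox6a2 overlapped between the tissues. The summed level, with Ly6d the highest gene in every library, was 609 to 2293 FPKM in omentum and 420 to 725 FPKM in mesentery. Against mesentery, 2 markers were at least 2-fold higher and 2 lower in naive mice and at 24 h, and 0 and 2 at 7 d. The shares of expressed genes were 8.18% and 8.05%, 13.9% and 10.2%, and 14.1% and 4.99%. Of the platelet markers, Pf4, which macrophages can also express, was at 167, 601 and 25.8 FPKM in omentum, while the other 7, Gp1bb and Itga2b the highest of them, did not exceed 2.07 FPKM in any library. The part of macrophage, neutrophil and plasmacytoid dendritic cell content in the Nrp1, Flt4 and Vegfa values was not tested.

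**Figure D3:**
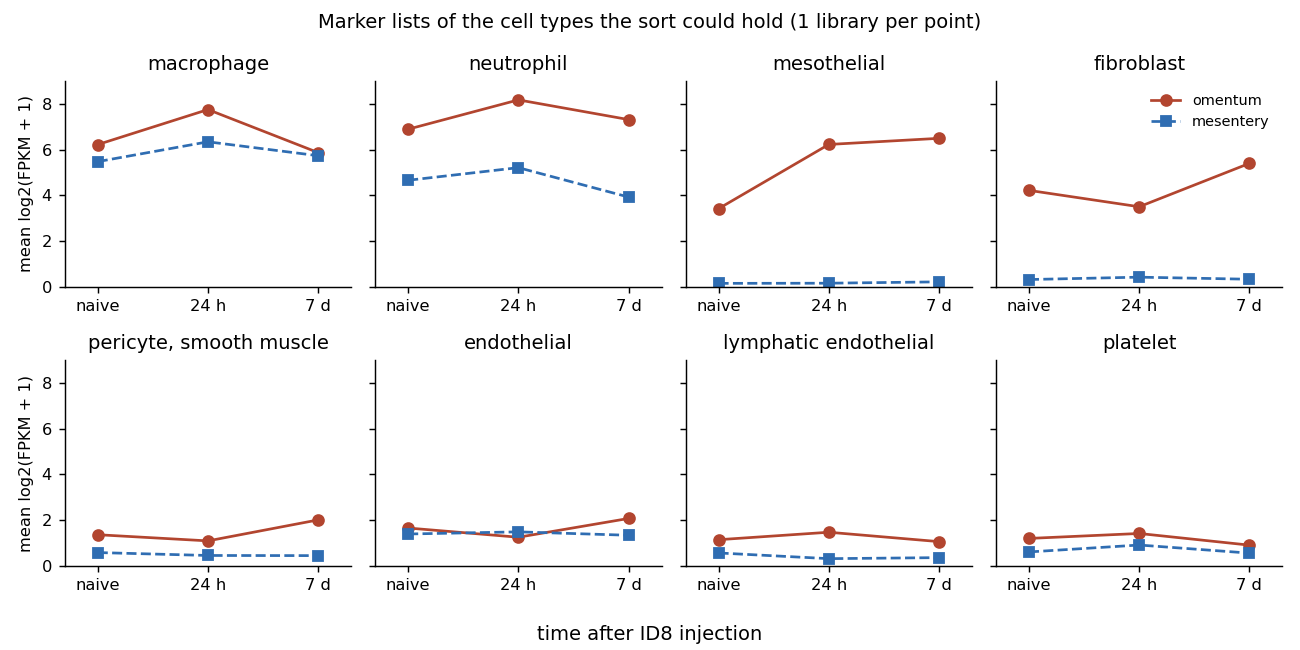
Mean log2(FPKM + 1) over the genes of 8 marker lists (vertical axis, the same scale in every panel) before and 24 h and 7 d after ID8 injection (horizontal axis), with omentum as circles and solid lines and mesentery as squares and dashed lines. Each point is 1 library with no error estimate. Mesothelial markers averaged 3.42, 6.22 and 6.49 in omentum and at most 0.21 in mesentery. The endothelial means of the 6 libraries ran from 1.25 in OM 24 h to 2.07 in OM 7 d.

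Several further genes of the VEGF and semaphorin system were also higher in omentum. Of 15 listed, 11 were expressed, and 8 of the 15 had all omental values above all mesenteric ones with 0 the reverse, against 16.7% and 17.7% of expressed genes. Those 8 include Plxna3, which was not expressed (at most 0.799 FPKM). Figf, Plxna4, Sema3a, Sema3b, Sema3c, Sema3d and Sema3f reached 1 FPKM only in omental libraries, so the expressed genes of the list lean towards omentum by construction. In omentum against mesentery, 2 of the 15 were at least 2-fold higher in naive mice (Nrp2 and Sema3c), 6 at 24 h and 8 at 7 d, against 8.18%, 13.9% and 14.1% of expressed genes. At none of these times was any of the 15 at least 2-fold lower, and the median differences were 0.33, 0.82 and 1.42. Within omentum 4 were higher at 24 h than in naive mice and 7 at 7 d (11.9% and 11% of expressed genes), where Plxnd1 alone was lower. Within mesentery 0 of the 15 passed 2-fold in any of the 3 comparisons.

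Sema3c, a secreted semaphorin that signals through neuropilins and plexins, was at 1.21, 17.0 and 26.6 FPKM in OM naive, 24 h and 7 d and at or under 0.00464 FPKM in mesentery. It was the only gene of this list with a gap of at least 2-fold between all libraries of the tissues. Sema3f, a ligand of NRP2, was at 1.99, 4.62 and 9.56 FPKM in omentum and at most 0.674 FPKM in mesentery. Sema3a, Sema3b and Sema3d, further semaphorins of the class, reached 2.49, 3.00 and 3.03 FPKM in omentum and stayed at or under 0.181 FPKM in mesentery.

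Nrp2, the neuropilin that binds VEGF-C, was at 12.4, 11.3 and 8.09 FPKM in OM naive, 24 h and 7 d and at 3.75, 5.97 and 4.50 FPKM in MY naive, 24 h and 7 d. It lay above mesentery throughout but, unlike Nrp1, was not highest at 24 h. Among the plexins, the signalling partners of the neuropilins, Plxna4 was at 1.06, 4.49 and 5.86 FPKM in omentum and at most 0.108 FPKM in mesentery. Plxna1 was at 3.17, 8.28 and 5.69 FPKM in omentum and at most 2.15 FPKM in mesentery. Plxnd1 was at 12.7, 9.51 and 5.41 FPKM in omentum and 8.02, 8.57 and 4.52 FPKM in mesentery, overlapping between the tissues.

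Gipc1, an adaptor for the cytoplasmic tail of neuropilin-1, was at 44.0, 82.7 and 57.5 FPKM in OM naive, 24 h and 7 d and at 45.9, 74.9 and 54.8 FPKM in MY naive, 24 h and 7 d. Its values were highest at 24 h in both tissues and the tissues overlapped. Figf, the older symbol of Vegfd and a further ligand of FLT4, was at 0.881, 0.0304 and 2.89 FPKM in omentum and at most 0.0489 FPKM in mesentery, and like Vegfc it was low where Flt4 was highest.

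**Figure D4:**
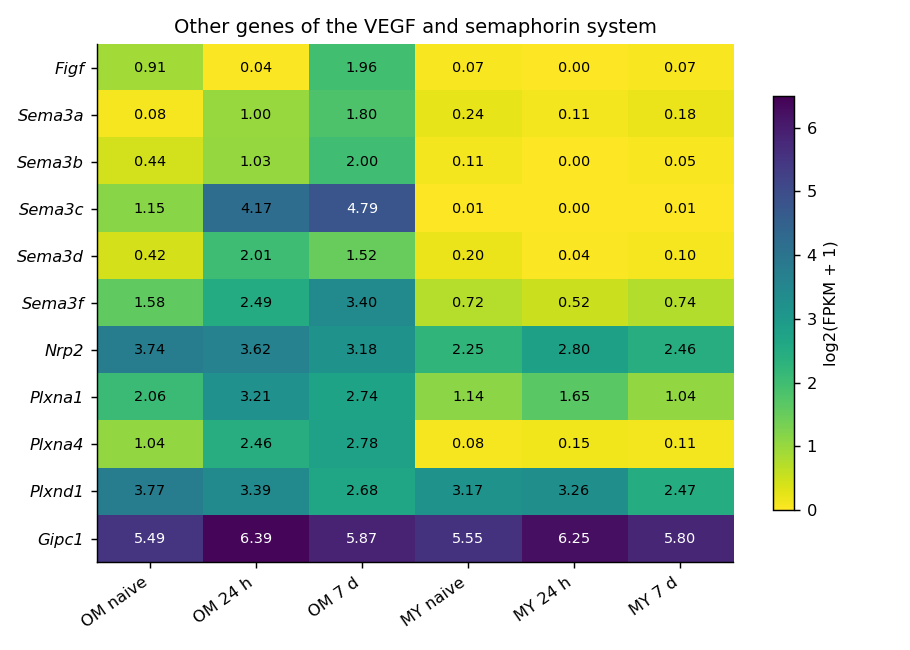
log2(FPKM + 1) of the 11 expressed genes of the VEGF and semaphorin list (rows) in the 6 libraries (columns), with the value printed in each cell and the colour scale at the right. Sema3c stood at 4.17 and 4.79 in omentum at 24 h and 7 d and at most 0.01 in mesentery, while Gipc1 was between 5.49 and 6.39 in all 6 libraries.

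In the angiopoietin and Tie pathway, 0 of 5 genes passed 2-fold in any of the 9 comparisons. Only Tie1, the partner receptor of TEK, reached 1 FPKM, in OM 7 d (1.03 FPKM), and it was at most 0.224 FPKM in mesentery. Angpt1, the activating ligand of TEK, was between 0.209 and 0.785 FPKM. The pathway as a whole was thus near or under the expression minimum, as Tek itself was.

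Other secreted factors known to promote or restrain vessel growth were followed as 22 genes, of which 16 were expressed. In omentum against mesentery, 5 were at least 2-fold higher and 1 lower in naive mice, 7 and 1 at 24 h, and 10 and 0 at 7 d. Over expressed genes the shares were 8.18% higher and 8.05% lower, 13.9% and 10.2%, and 14.1% and 4.99% in the same order. Sparc, a secreted matrix protein that can bind VEGF, was at 43.1, 231 and 311 FPKM in OM naive, 24 h and 7 d and at 1.33 to 1.77 FPKM in mesentery. Adm, the vasodilator adrenomedullin, ran the other way within omentum, at 117, 8.87 and 13.9 FPKM, and stayed at 2.39 to 3.01 FPKM in mesentery. Angptl2 was at 4.50, 13.1 and 26.3 FPKM in omentum and 0.974 to 1.71 FPKM in mesentery. These 3 of the 22 were separated by at least 2-fold, against 2.73% of expressed genes. Pdgfa, a mitogen for mesenchymal cells, was at 5.58, 43.1 and 23.9 FPKM in omentum and 3.49 to 5.71 FPKM in mesentery. Angptl4, the gene lower in naive omentum, was at 2.39, 7.67 and 20.9 FPKM in omentum and 6.33, 13.4 and 8.19 FPKM in mesentery.

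Of the 8 oxygen-sensing regulators, Egln3, a prolyl hydroxylase, was at 1.10, 10.6 and 6.47 FPKM in OM naive, 24 h and 7 d. In MY naive, 24 h and 7 d it was at 0.925, 1.03 and 1.41 FPKM. Like Vegfa it was close between the tissues in naive mice and higher in omentum after injection, by 2.52 on the log2 scale at 24 h. At that time 1 of the 8 (Egln3) was at least 2-fold higher in omentum and 1 (Vhl) lower, against 13.9% and 10.2% of expressed genes. From OM naive to OM 24 h, Egln3 alone was higher and 0 were lower, against 11.9% and 6.45%. A part of hypoxia-inducible factors in the Vegfa values was not tested. Hif1a itself was at 47.5 to 51.9 FPKM in omentum and 34.5 to 44.6 FPKM in mesentery, less than 2-fold apart. Vhl, the ligase subunit that marks those factors for degradation, was at 19.1, 23.1 and 27.3 FPKM in omentum and 58.1, 86.8 and 63.7 FPKM in mesentery, the only gene of the list separated by at least 2-fold. Egln2 was at 51.7 to 61.1 FPKM in omentum and 43.7 to 45.5 FPKM in mesentery.

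Of 8 Notch genes used in vessel sprouting, 2 were at least 2-fold lower in naive omentum than in naive mesentery (Dll1 and Jag1). The share of expressed genes was 8.05%. Within omentum both were at least 2-fold higher at 24 h than in naive mice, and both and Hey1 at 7 d, against 11.9% and 11%. Dll4 was at 0.593, 0 and 0.386 FPKM in omentum and 1.65, 1.14 and 1.33 FPKM in mesentery. At 24 h Dll4 alone was at least 2-fold lower in omentum than in mesentery, against 10.2% of expressed genes. Notch1 was the highest of the list, at 3.06 to 4.44 FPKM in omentum and 4.43 to 6.23 FPKM in mesentery. Jag1, a Notch ligand, was at 0.486, 2.12 and 2.36 FPKM in omentum and 2.95, 2.55 and 1.73 FPKM in mesentery. Dll1 was at 0.329, 2.31 and 2.58 FPKM in omentum and 1.62 to 2.01 FPKM in mesentery.

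The genes most like each expressed member were taken by Pearson's r of log2(FPKM + 1) over the 6 libraries, among 7998 genes with at least 10 FPKM in a library. With 6 points that share their libraries, high values of r arise for many genes, so r is a description and has no p. For Vegfa these were Oasl2, an interferon-induced gene (r = 0.997), Tjap1 (0.993) and AA467197 (0.992). Oasl2 was at 11.7, 41.6 and 44.3 FPKM in OM naive, 24 h and 7 d and at 4.31 to 7.03 FPKM in mesentery, so it too was high only in omentum after injection.

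For Nrp1 the most like genes were Fpr1, the formyl peptide receptor (0.998), Fgr, a myeloid kinase (0.997), and C3ar1, the complement C3a receptor (0.995). C3ar1 was at 11.4, 101 and 9.46 FPKM in OM naive, 24 h and 7 d and at 0.347 to 2.34 FPKM in mesentery. For Flt4 they were Plk3 (0.997), Anxa8 (0.995) and Pwwp2b (0.995), and for Pecam1 they were Rabgap1l (0.992), Cytip (0.991) and Zfp110 (0.989). Anxa8 was at 23.8 FPKM in OM 24 h and 7.34 FPKM in OM 7 d and under 1 FPKM in the other 4 libraries, so that like Flt4 it was high only in omentum after injection.

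For Flt1 the most like genes were Gstm1 (0.998), Tmem151a (0.997) and Wwtr1, the TAZ coactivator (0.997), with Gstm1 at 37.9, 203 and 406 FPKM in OM naive, 24 h and 7 d. For Pgf they were Gstt1 (0.993), Gpr133 (0.987) and Cbx6 (0.983), and for Kdr they were Rars2 (0.956), Cers4 (0.939) and Gng13 (0.939). For Vegfc they were 5031425E22Rik (0.997), Dalrd3 (0.976) and Pdxp (0.964), and for Vegfb they were Tnfrsf21 (0.992), Stom (0.988) and Rnf130 (0.986). Kdr thus had the lowest best match of the 9 members. Among pairs of members, Vegfa and Flt1 were the most alike (0.963), and Flt4 and Pecam1 the most opposed (-0.948).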

How the data were processed

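RNA of sorted macrophages was sequenced as paired-end reads. Per the submitters' processing notes and the study's methods, the authors checked reads with FastQC 0.11.4, aligned them to mm9 with STAR 2.4.2a and computed FPKM with Cufflinks. The deposited table holds FPKM per gene symbol, with 1 column for each library. FPKM are not counts, so the count test of the study was not used. Differences of log2(FPKM + 1) between libraries were computed in Python 3.11.15 with numpy 2.4.6 and pandas 2.3.3, and figures were drawn with matplotlib 3.10.9. The scripts were checked on simulated data. The members and lists were chosen with earlier results of these data known. The text names all 10 members, the VEGF, semaphorin and angiopoietin genes reaching 1 FPKM, and of each other list the 3 highest, those separated by 2-fold and 5 endothelial genes, with the 3 genes most like each member. Examples outside this rule, such as Ptprc, Itgam, Emr1, Plvap, Esam, Sox18, Prox1, Angpt1, Egln3, Ccr9, Cox6a2 and Dll4, were chosen after their values were seen. So were Tcf4, Kcnj8, Robo4, Eng and Angptl4. Vegfd, Adgre1 and Adgrd1 appear under the older symbols Figf, Emr1 and Gpr133, and Muc16 was not matched. Positions come from NCBIM37 with GENCODE M1, which may differ from the annotation used for FPKM. Alternatives were pseudocounts of 0.1 and 5, other filters, 2 rescalings and leaving out the naive libraries.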

Additional observations from a re-analysis of the deposited data

Results flagged for a closer look

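Vegfa moved in opposite directions after ID8 injection in the tissues. At 24 h its difference from naive on the log2(FPKM + 1) scale was 1.89 in omentum and -0.62 in mesentery, and at 7 d it was 1.82 in omentum and -0.87 in mesentery. The difference between the tissues was not tested, since each condition has 1 library, and both time points of a tissue share its naive library. The mesenteric values, at 1.46 FPKM or less, are low, and both mesenteric differences fall short of 2-fold on that scale.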

How the results depend on the processing

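No paired analysis was possible because the labels give a single library to every condition, and leaving out a replicate was not possible for the same reason. Of 360 member differences recomputed under 4 settings, 304 moved by less than 1.5-fold (0.585 on the log2 scale), 56 moved by more and 0 of those past 2-fold changed direction. Rescaling by the median ratio moved 0 of 90, and rescaling to a sum of 1e+06 moved 2 of 90, while it moved the median of all expressed genes most in OM 7 d against OM 24 h, from 0.05 to 0.36. A pseudocount of 0.1 moved 35 and one of 5 moved 19.

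With a pseudocount of 0.1 the members past 2-fold in OM against MY were 4 in place of 2 in naive mice and 9 in place of 4 at 24 h. Within omentum they were 8 in place of 5 (24 h against naive), 5 in place of 3 (7 d against naive) and 7 in place of 4 (7 d against 24 h). Within mesentery they were 3 in place of 1 at 24 h and at 7 d against naive, and 1 in place of 0 from 24 h to 7 d. With a pseudocount of 5 they were 0 in OM against MY in naive mice, 1 at 7 d (Vegfa) in place of 5, 1 in OM 7 d against naive, 2 in OM 7 d against OM 24 h, and 0 in both mesenteric comparisons with naive. The addition to low FPKM shrinks their differences by construction. Rescaling to the fixed sum gave 5 in OM 7 d against naive and 2 in MY 7 d against naive. The count of members with a 2-fold gap between tissues was 0, and became 1 with a pseudocount of 0.1 (Pgf), 2 without the naive libraries (Vegfa and Flt4) and 4 where no gap was asked. Those 4 were the same genes under both rescalings, an alternative chosen after seeing the data. With 1 FPKM asked in all 6 libraries, the share of genes past 2-fold in either direction was 10.3% in place of 19.1% for OM 7 d against MY 7 d and 6.34% in place of 12.9% for OM 7 d against OM naive, and the other 7 shares, and all 9 with no filter, stayed within 1.5-fold. Values under 1 FPKM rest on few reads.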
